A study of Mus musculus with 7 samples.

Results

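Transfer RNA (tRNA) genes were examined in maps of open chromatin from cells of the second heart field (SHF), a pool of cardiac progenitors, of mouse embryos at embryonic day 9.5. The members are all 386 nuclear tRNA genes that the RefSeq annotation of GRCm38 places on chromosomes 1 to 19, each taken with 100 bp on either side. The rule uses the annotation and no peak, though tRNA genes were taken up with earlier results of these data known. They lie on 18 of these chromosomes, code for 20 isotypes with 48 anticodons, and hold 211 distinct gene sequences. The genes are 70 to 107 bp long and 22 contain an intron.

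ATAC-seq uses a transposase that cuts and tags accessible DNA, so that reads pile up where chromatin is open. GFP+ (replicates 3 and 4) and GFP- (replicates 1 and 2) cells were sorted from embryos of the *Hoxb1*GFP line, whose GFP is made by cells that express *Hoxb1*, a marker of the posterior SHF. Tomato+ (replicates 6 and 8) and Tomato- (replicate 7) cells were sorted from embryos of the *Mef2c-Cre;Rosa*tdT line, where a *Mef2c* enhancer drives Cre and the reporter stays on in all descendants of the labelled cells. Both negative populations are mixtures of the other cells of the dissected region. Embryos were pooled within each genotype before sorting, so the spread between libraries of a population may not cover the spread between embryos, although the study calls its replicates biological. The run name in the peak caller's header of Tomato+ replicate 6 contains YFP and not Tomato. The labels were followed, and the population counts are also given without this library.

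tRNA genes are read by RNA polymerase III (Pol III). Their promoter lies inside the gene, where the factor TFIIIC binds the A box and the B box and then places TFIIIB just upstream of the start, and a run of T after the gene ends transcription. Mammalian genomes carry many copies for each anticodon, of which only some are usually active in a given cell type. ATAC-seq measures the access of the DNA and not the tRNA made from it.

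The sequences below show the internal promoter of genes whose data are described further on, with the best match to the B box core in capitals. The letters searched were GTTCGANNC, on the strand of the gene. The first 2, Asp and Asn, belong to sets of identical genes that hold both open and peakless copies, followed by the most frequent Cys gene, an initiator Met gene, the gene with the highest lowest fold enrichment, and the Thr gene that leads the GFP+ list.
Asp GTC (13 copies, here n-TDgtc4, chr1:171037029-171037100, minus strand): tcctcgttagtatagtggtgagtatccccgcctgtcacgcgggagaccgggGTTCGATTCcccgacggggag
Asn GTT (9 copies, here n-TNgtt6, chr1:171033942-171034015, minus strand): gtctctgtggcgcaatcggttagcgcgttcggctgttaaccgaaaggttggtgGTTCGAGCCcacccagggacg
Cys GCA (29 copies, here n-TCgca37, chr6:48133937-48134008, plus strand): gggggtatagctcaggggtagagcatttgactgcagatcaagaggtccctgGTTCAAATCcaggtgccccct
Met CAT, initiator form (7 copies, here n-TMcat11, chr3:90475860-90475931, minus strand): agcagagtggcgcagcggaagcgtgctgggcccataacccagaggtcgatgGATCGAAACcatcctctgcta
Lys CTT (1 copy, n-TKctt6, chr13:4224148-4224220, minus strand): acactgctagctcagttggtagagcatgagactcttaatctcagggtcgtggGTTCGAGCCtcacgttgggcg
Thr TGT (1 copy, n-TTtgt1, chr14:51088650-51088722, plus strand): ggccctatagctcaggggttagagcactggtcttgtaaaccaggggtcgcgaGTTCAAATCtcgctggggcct
The Cys, initiator Met and Thr genes shown match the core with 1 mismatch and the others with none.

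A gene was called open in a library when its window overlapped, by at least 1 bp, a peak with a -log10 q of at least 2 (q at most 0.01), and peakless when no peak of any deposited threshold touched it. Between 136 and 172 of the 386 genes were open in a library. GFP+ replicates 3 and 4 each had 170 open genes (44.0%, 95% Wilson interval 39.2 to 49.03). Tomato+ replicate 6 had 136 (35.2%, 30.6 to 40.1) and Tomato+ replicate 8 had 138 (35.8%, 31.1 to 40.7). GFP- replicates 1 and 2 had 154 (39.9%) and 150 (38.9%), and Tomato- replicate 7 had 172 (44.6%). Both GFP+ libraries were thus above both Tomato+ and both GFP- libraries. The intervals of the GFP+ and Tomato+ libraries overlapped, but they treat genes as independent. Such overlap cannot compare populations, whose unit is the library. The mean was 39.8% ± 4.94 (SD, n = 4) over sort-positive and 41.1% ± 3.04 (SD, n = 3) over sort-negative libraries, a difference of -1.34 percentage points that was smaller than the spread between libraries and was 0.173 without Tomato+ replicate 6 and 0.389 without Tomato- replicate 7. The intervals cover counting error only. The number of tags was computed from the smallest background of each list, with the same read extension taken for all lists. In units of 1000000 it was 52.3 to 93.1, lowest in Tomato+ replicate 6 and highest in Tomato- replicate 7. This number stands for depth below. A library had 64306 to 77746 peaks at this threshold.

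The background was taken from all 8808141 consecutive windows of 272 bp, the median length of the members with their flanks. For GFP+ cells 1.55% and 1.56% of these were open (replicates 3 and 4), for Tomato+ cells 1.56% and 1.43% (replicates 6 and 8), for GFP- cells 1.42% and 1.53% (replicates 1 and 2), and for Tomato- cells 1.73%. The share of tRNA genes was thus 22.6 to 28.4 times that of windows. With peaks of any threshold, 183 to 223 tRNA genes (47.4% to 57.8%) were touched, and the windows, in the same order of libraries, reached 4.89%, 3.67%, 4.27%, 3.63%, 3.29%, 3.96% and 3.64%. Start sites of coding genes, in windows of the same length, were open more often, at 56.1% to 59.5% of 24831.

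**Figure D1:**
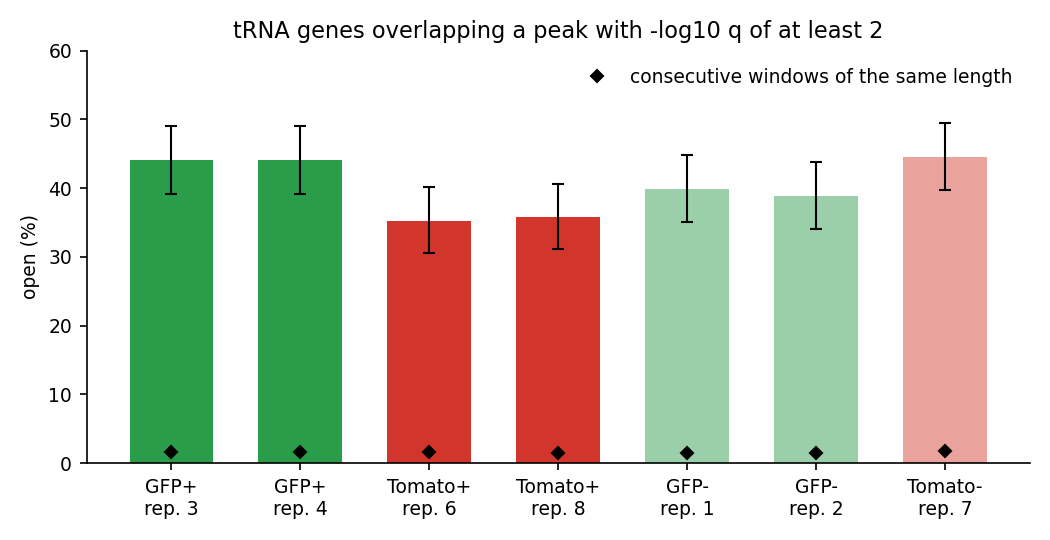
Percent of 386 tRNA genes open in each of 7 libraries (bars, with 95% Wilson intervals) and of 8808141 consecutive windows of the same length (diamonds). The bars run from 35.2% to 44.6% and the diamonds from 1.42% to 1.73%, with both Tomato+ bars below all others.

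The members split into 3 classes. Across the 7 libraries, 80 tRNA genes (20.7%) were open in all, 105 (27.2%) were peakless in all, and 201 lay in between. Of the windows, 0.596% were open in all libraries and 85.9% were peakless. Start sites of coding genes were open in all libraries at 47.7% and peakless at 22.1%. Counting libraries in which a gene was open, 145 tRNA genes were open in 0, 42 in 1, 29 in 2, 16 in 3, 19 in 4, 24 in 5, 31 in 6 and 80 in 7, so that 225 genes lay at either end of this scale. When the summit itself had to lie inside the window, 18 genes were open in all libraries, and with 500 bp on either side 122 were open in all and 59 peakless.

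The overlap of open tRNA genes between libraries of one population lay inside the range seen across populations. GFP+ replicates 3 and 4 shared 137 genes, 80.6% of each list. Tomato+ replicates 6 and 8 shared 106 (77.9% and 76.8%), and GFP- replicates 1 and 2 shared 122 (79.2% and 81.3%). As a share of the genes open in either library, these 3 pairs reached 63.1% to 67.5% (median 67.03%), and the 18 pairs across populations 54.5% to 74.9% (median 65.05%). The highest value was that of GFP+ replicate 4 with GFP- replicate 2.

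The open peaks at tRNA genes were of moderate height. The median fold enrichment, the ratio of pileup to modelled background within a library, was 3.83 to 4.49, against 3.45 to 3.95 for all peaks at this threshold. Among the peaks at this threshold, ranked by fold enrichment, the median open tRNA gene stood within the highest 34.3% to 45.5% of a library's list. In the whole list, of which such peaks made up 24.8% to 38.3%, that was the highest 8.51% to 15.8%. Neighbouring genes often shared a peak, so that the 170 open genes of GFP+ replicate 3, for example, rested on 146 distinct peaks.

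The 5 genes with the highest lowest fold enrichment were *n-TKctt6*, *n-TRacg2*, *n-TNgtt14*, *n-TEttc7* and *n-TRacg6*, which code for Lys, Arg, Asn, Glu and Arg tRNAs. *n-TKctt6* had fold enrichments of 12.3 and 13.5 for GFP+ cells (replicates 3 and 4), 14.4 and 15.6 for Tomato+ cells (replicates 6 and 8), 10.6 in each GFP- library, and 13.8 for Tomato- cells. Both Tomato+ libraries were above all others and both GFP- libraries below all others at this gene. Its window was split between peaks, and the strongest one had its summit 217 to 261 bp past the gene start in GFP+ replicates 3 and 4 and GFP- replicate 1 and 24 to 33 bp past it in the other 4 libraries. The values ranked here thus do not belong to the same site. The gene is intergenic, with the nearest start site, that of *Akr1c19*, at 9520 bp.

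*n-TNgtt14* (chr5:149229001-149229074), one of the identical Asn genes printed above, had 9.45 and 8.45 in the GFP+, 10.8 and 9.69 in the Tomato+, 10.8 and 9.26 in the GFP- and 9.80 in the Tomato- libraries, with populations that overlapped. *n-TEttc7* (chr7:58399315-58399386) had 9.39 and 12.0, 8.36 and 10.7, 9.63 and 13.2, and 9.22 in the same order. The nearest start site to this gene was 258816 bp away, while both Arg genes were beside the promoter of another gene. *n-TRacg2* (chr9:123529425-123529497) lies 256 bp from the start of *Sacm1l* and *n-TRacg6* (chr14:54517696-54517768) 226 bp from that of *Prmt5*, so that their peaks cannot be told apart from those of the neighbours. *n-TRacg2* ranged from 8.48 to 12.98 and *n-TRacg6* from 8.35 to 15.5 over the libraries.

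**Figure D2:**
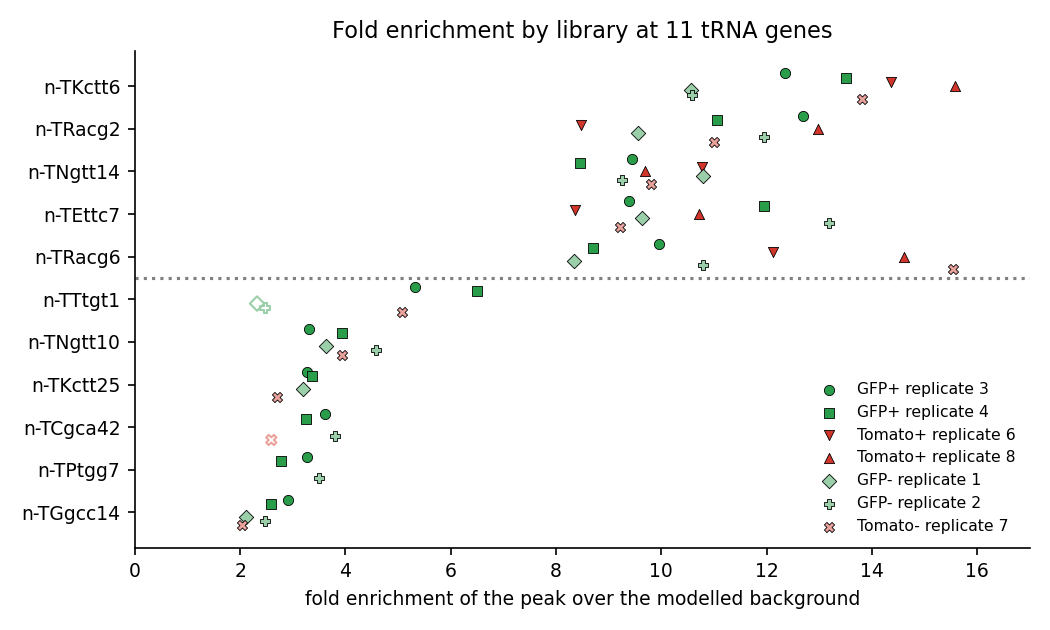
Fold enrichment of the peak at 11 tRNA genes (rows) in each library, filled symbols for open and empty symbols for peaks below the threshold, with no symbol where there was no peak. The 5 genes above the dotted line have 8.35 or more in every library, and the 6 below it have 6.50 or less and no Tomato+ symbol.

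The comparison of GFP+ with Tomato+ cells asks which chromatin differs between the posterior SHF and the *Mef2c-Cre* domain. As each of these populations came from its own mouse line, population and line cannot be told apart in it. Few tRNA genes were open in both libraries of one population and peakless in both of the other. Of the 137 genes open in both GFP+ libraries, 6 (4.38%) had no peak in either Tomato+ library, against 3.6% of windows open in both GFP+ libraries. Of the 106 genes open in both Tomato+ libraries, 0 were peakless in both GFP+ libraries, against 3.05% of windows. With the weaker demand of not being open, 17 of 137 genes (12.4%) were lost from GFP+ to Tomato+ libraries, against 8.75% of windows, and 3 of 106 (2.83%) in the other direction, against 7.49%. With 2 libraries against 2, an exact two-sided permutation test cannot go below 0.333, so these counts are given with no p. The count of 6 rested on both replicates, and with GFP+ replicate 3, GFP+ replicate 4, Tomato+ replicate 6 or Tomato+ replicate 8 left out it was 14, 19, 15 or 17. These were 8.24%, 11.2%, 10.9% and 12.4% of the genes tested, against 21.4%, 24.2%, 9.47% and 9.29% of windows. The count of 0 in the other direction became 4, 2, 2 or 4, the 17 genes became 32, 39, 27 or 35, and the 3 genes became 7, 10, 8 or 14, in the same order. For the count of 0 the shares were 3.77%, 1.89%, 1.45% and 2.94%, against 7.47%, 7.7%, 19% and 23.2% of windows. For the 17 genes they were 18.8%, 22.9%, 19.7% and 25.5%, against 33.7%, 36%, 16.8% and 17.9%. For the 3 genes they were 6.6%, 9.43%, 5.8% and 10.3%, against 13.2%, 15.1%, 30.7% and 36.1%. Leaving out a library is the weaker demand by construction.

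Among the 92 tRNA genes open in all 4 of these libraries, 18 (19.6%) had a higher rank by fold enrichment in both GFP+ libraries than in both Tomato+ libraries, against 21.9% of the regions tested in the same way, and 12 (13%) the reverse, against 16.7%. Without Tomato+ replicate 6 these were 37 of 110 (33.6%, against 35.4% of regions) and 30 (27.3%, against 33.5%), and without any 1 of the 4 libraries 31 to 46 and 22 to 30.

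The 6 genes open in GFP+ and peakless in Tomato+ libraries were *n-TTtgt1*, *n-TNgtt10*, *n-TKctt25*, *n-TCgca42*, *n-TPtgg7* and *n-TGgcc14*. *n-TTtgt1*, whose sequence is printed above, had fold enrichments of 5.31 and 6.50 for GFP+ replicates 3 and 4 and 5.08 for the Tomato- library, peaks below the threshold in GFP- replicates 1 and 2 (2.32 and 2.48), and none in either Tomato+ library. The 3 high peaks had their summit 828 to 843 bp past the gene start, so the height is that of a neighbouring site whose peak reached the window, and the nearest start site was that of *Rnase4* at 2355 bp. *n-TNgtt10* (chr3:96402218-96402291) had 3.30 and 3.92 in the GFP+ libraries, 3.62 and 4.57 in the GFP- libraries and 3.93 in Tomato- replicate 7. *n-TKctt25* (chr1:133034327-133034399), annotated with the anticodon TTT, had 3.27 and 3.36 in the GFP+ libraries, 3.20 in GFP- replicate 1 and 2.695 in Tomato- replicate 7, with no peak in GFP- replicate 2. The others had GFP+ values between 2.58 and 3.61. Each of the 6 genes thus also had a peak in at least 1 sort-negative library, and *n-TGgcc14* and *n-TCgca42* lie in sequence with a median of 3 and 4 genome copies. In both GFP+ replicates the strongest peaks of *n-TTtgt1* and *n-TPtgg7* reached only the flank and not the gene. The same held for *n-TCgca42* and *n-TKctt25* in GFP+ replicate 4. The GFP+ peaks of *n-TKctt25* were also those of its neighbour *n-TKctt26*. That neighbour had peaks in Tomato+ replicates 6 (2.48, below the threshold) and 8 (3.36).

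In the same cluster as *n-TTtgt1*, the Leu gene *n-TLtag2* (chr14:51082830-51082911) had peaks in another set of libraries. Its fold enrichments were 4.24 and 4.73 in Tomato+ replicates 6 and 8, 3.55 and 4.11 in the GFP- libraries and 6.71 in GFP+ replicate 4, with no peak in GFP+ replicate 3 or Tomato- replicate 7. The summits lay at -592 and -206 bp from the gene start in Tomato+ replicates 6 and 8, at 98 and -46 bp in GFP- replicates 1 and 2 and at -231 bp in GFP+ replicate 4, so the values do not belong to the same site. The GFP+ replicates disagreed at this gene.

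Within the *Hoxb1*GFP line, 0 of the 137 genes open in both GFP+ libraries were peakless in both GFP- libraries, against 3.8% of windows. Without GFP+ replicate 3 or 4 that count was 8 or 10, and without GFP- replicate 1 or 2 it was 6 or 12. These were 4.71%, 5.88%, 4.38% and 8.76% of the genes tested, against 22.1%, 25.4%, 8.11% and 9.25% of windows. Of the 122 genes open in both GFP- libraries, 1 (0.820%) was peakless in both GFP+ libraries, against 3.5%. Without GFP+ replicate 4 there were 7 (5.74%, against 8.46% of windows). Without GFP- replicate 1 or 2 there were 2 (1.33%, against 21.4%) or 4 (2.6%, against 18.5%). The 1 gene is the Tyr gene *n-TYgta3* (chr13:23425646-23425734), with fold enrichments of 3.14 and 3.01 in the GFP- libraries and a peak below the threshold, 2.08, in Tomato+ replicate 6. Of 104 genes open in all 4 libraries of the line, 29 (27.9%) ranked higher in both GFP+ libraries, against 20.3% of regions, and 15 (14.4%) ranked higher in both GFP- libraries, against 17.2%. Without any 1 of the 4 libraries these were 42 to 52 and 29 to 39, and without GFP+ replicate 3 the shares were 36.4%, against 35.6% of regions, and 33.1%, against 32.9%. In these rank counts, as above, genes that share a peak were each counted and a region once.

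Within the *Mef2c-Cre;Rosa*tdT line, 2 of 106 genes (1.89%) were open in both Tomato+ libraries and peakless in the single Tomato- library, against 5.07% of windows. They are *n-TLtag2* and the Ser gene *n-TSaga6* (chr13:21927857-21927938), which had 4.32 and 3.40 in the Tomato+ libraries and 3.29 in GFP+ replicate 3. In the other direction 11 of the 172 genes open in Tomato- replicate 7 (6.40%) were peakless in both Tomato+ libraries, against 21.2% of windows open in that library. In 1 of the 11, *n-TTtgt1*, the fold enrichment reached 5.08, and in *n-TNgtt10*, the next, 3.93. Without Tomato+ replicate 6 the counts were 6 of 138 (4.35%, against 23.6% of windows) and 23 of 172 (13.4%, against 31.1%). Without Tomato+ replicate 8 they were 12 of 136 (8.82%, against 31.7%) and 29 of 172 (16.9%, against 32.8%). Tomato- replicate 7 was the deepest library and had no replicate.

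Across isotypes, each of the 20 had at least 1 open gene in each library, and 18 had at least 1 gene open in all 7. Of 48 anticodons, 42 had an open gene in each library and 38 a gene that was open in all 7. Only the single His ATG gene and the single Ser GGA gene left their anticodon with no open gene in any of the 7 libraries. None of the 23 Arg genes was peakless, 9 were open in all libraries, and 12 to 18 were open in a library. Leu had 9 of 25 genes open in all libraries and 3 peakless, Gly 10 of 28 and 6, Glu 7 of 20 and 4, His 4 of 11 and 2, and Tyr 4 of 10 and 3. Lys stood lower, with 1 of 25 genes open in all libraries, the gene *n-TKctt6* described above, and 8 peakless. Gln had 2 of 15 and 6 peakless. Phe, with 7 genes, had 0 open in all libraries and 1 peakless, with 1 to 4 open in a library.

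The largest isotype was also the least open. Of 57 Cys genes, 0 were open in all libraries, 40 (70.2%) were peakless, and 2 to 6 were open in a library. There were 49 Cys genes on chromosome 6 between 47978997 and 48363603, of which 37 were peakless and 1 to 4 were open in a library, and 48 Cys genes lay in introns of the annotated gene *Gm16630*. The 8 Cys genes elsewhere had 3 peakless and 1 to 3 open in a library. The most frequent Cys sequence, printed above, occurs in 29 genes, of which 21 were peakless. On chromosome 6, 19 Cys genes lay in windows whose 49-base words have a median of more than 1 genome copy, where reads cannot be placed with certainty, and the part of this in the low counts was not tested. Without the Cys genes, 80 of 329 tRNA genes (24.3%) were open in all libraries and 65 (19.8%) were peakless.

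**Figure D3:**
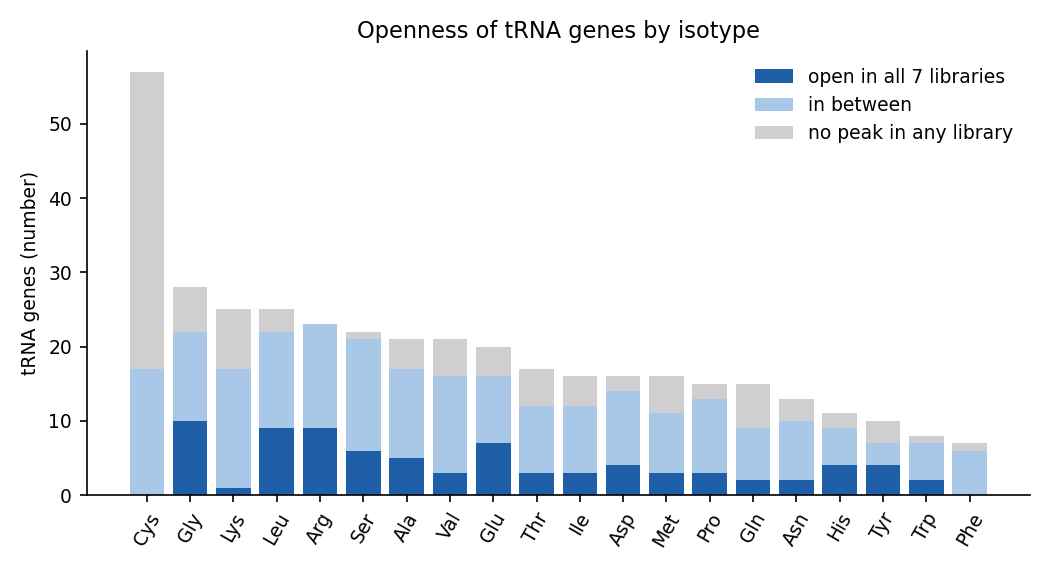
Number of tRNA genes of each of 20 isotypes, split into genes open in all 7 libraries, genes peakless in all, and genes in between. Cys stands apart with 40 of 57 genes peakless and 0 open in all libraries, and Arg has 0 peakless among 23.

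The initiator Met tRNA starts each protein and the elongator form serves inside it. Of the 9 initiator genes, *n-TMcat11* alone was open in all 7 libraries, with fold enrichments of 8.72 and 13.2 in the GFP+, 7.52 and 9.12 in the Tomato+, 8.74 and 10.1 in the GFP- and 10.7 in the Tomato- library. It lies 270 bp from the start of *Ilf2*, so that its peak cannot be told apart from that of the promoter. *n-TMcat8* was open in 5 libraries and *n-TMcat6* in 3. *n-TMcat2*, *n-TMcat7* and *n-TMcat10* were each open in 1, and *n-TMcat3*, *n-TMcat5* and *n-TMcat9* were peakless. Of 7 elongator genes, 2 were open in all libraries, 3 were open in 1 or 2, and 2 were peakless. No selenocysteine tRNA gene was among the members.

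Genes at most 10 kb apart were joined into clusters, which gave 61 clusters with 286 genes and 100 single genes. Single genes were open in all libraries in 34 cases and peakless in 38, clustered genes in 46 and 67 cases. In 6 clusters each gene was open in all libraries, and none of these held more than 4 genes. They include 3 His genes on chromosome 2 (122375494 to 122378039) and the Arg, Tyr, Tyr and Ala genes on chromosome 3 (19627959 to 19629067). The chromosome 3 genes all shared a single strongest peak in each library. In 2 clusters, of 4 and 2 Cys genes on chromosome 6, each gene was peakless, and 7 clusters held both genes open in all libraries and peakless genes.

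The 22 clusters of at least 5 genes held 189 genes. The 3 largest Cys clusters of chromosome 6, with 9, 22 and 10 genes from 48133937 to 48363603, had 0 genes open in all libraries and 6, 19 and 5 peakless. On chromosome 13, 104 genes lie within 1 Mb of 53 histone genes, between 21160785 and 23530419. Of these, 6 were open in all libraries and 20 peakless, while 73 were open in at least 1 library. The GFP+ libraries had 47 and 42 of them open, the Tomato+ libraries 32 and 31, the GFP- libraries 34 and 35, and the Tomato- library 41. The GFP+ libraries were thus above the Tomato+ and GFP- libraries here, as they were over all tRNA genes. The clusters of this stretch with at least 5 genes begin with *n-TEctc11* (9 genes, 2 open in all libraries), *n-TAagc17* (10, 0), *n-TMcat2* (15, 1), *n-TVaac3* (6, 0), *n-TVaac6* (6, 0), *n-TYgta3* (14, 1), *n-TWcca3* (6, 0) and *n-TGgcc6* (8, 1).

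On chromosome 1 the clusters beginning with *n-TNgtt6*, *n-TEctc5* and *n-TLcag9* held 5, 15 and 5 genes, of which 0, 8 and 2 were open in all libraries. On chromosome 3 those beginning with *n-TVcac10*, *n-TNgtt11* and *n-TNgtt12* held 5 genes each, with 0, 0 and 1. On chromosome 11 those beginning with *n-TIaat5* and *n-TTagt5* held 7 genes each, with 0 in both. Those beginning with *n-TAtgc10* on chromosome 5 (5 genes), *n-TKctt13* on chromosome 17 (7) and *n-TFgaa6* on chromosome 19 (8) had 0, 1 and 2.

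The cluster of 15 genes on chromosome 1 (171064164 to 171081946) consists of 3 repeats of Glu, Gly, Asp, Leu and Gly genes, whose windows have a median of 3 genome copies. The outer repeats had 4 and 3 of 5 genes open in all libraries and 0 peakless. The 4 genes of the first repeat shared a peak in each library but Tomato+ replicate 8, where *n-TLcag6* had another. The middle repeat had 1 open in all libraries, the Gly gene *n-TGgcc13*, and 2 peakless, *n-TEctc8* and *n-TLcag7*. The Asp gene of the middle repeat was open in 1 library and those of the outer repeats in 7. How reads that match several places were assigned to them was not tested, and openness in this cluster cannot be told apart from that assignment.

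Identical genes differed in openness by place. There were 52 sets of identical gene sequences with 227 genes, and in 11 sets, with 78 genes, 22 copies were open in all libraries and 13 were peakless. In single-copy windows alone there were 9 such sets with 57 genes, 16 of them open in all libraries and 11 peakless, since in 2 sets the peakless copy lies in the repeat just described. Single-copy means a median of 1 genome copy over the window, while the gene itself still recurs within a set. In the Asp set, 4 of 13 copies were open in all libraries and 1, *n-TDgtc13* on chromosome 13, was peakless. In the Asn set, *n-TNgtt14* and *n-TNgtt7* were open in all libraries and *n-TNgtt8* was peakless. As the internal promoters within a set are the same, the sets allow the flanks to be compared. To show such flanks, the 100 bases before a copy open in all libraries and before a peakless copy are given for Asp and Asn, the largest sets with both kinds of copy in single-copy windows, with CG in capitals.
Asp *n-TDgtc5*, open (chr1:171102271-171102370, plus strand): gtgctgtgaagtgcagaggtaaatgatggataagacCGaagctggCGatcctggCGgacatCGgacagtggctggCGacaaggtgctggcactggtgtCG
Asp *n-TDgtc13*, peakless (chr13:21935569-21935668, minus strand): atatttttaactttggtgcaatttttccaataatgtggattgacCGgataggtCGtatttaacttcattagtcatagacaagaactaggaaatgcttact
Asn *n-TNgtt14*, open (chr5:149229075-149229174, minus strand): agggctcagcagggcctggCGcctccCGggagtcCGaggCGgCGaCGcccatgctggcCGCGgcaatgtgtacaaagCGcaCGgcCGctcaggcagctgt
Asn *n-TNgtt8*, peakless (chr11:97702523-97702622, minus strand): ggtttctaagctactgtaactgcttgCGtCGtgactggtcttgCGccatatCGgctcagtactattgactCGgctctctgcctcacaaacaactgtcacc
The open Asp copy has 6 CG in this stretch and the peakless copy 2, and the open Asn copy 11 against 5.

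Over both flanks together, genes open in all libraries had a median of 7 CpG (quartiles 4 to 12), genes in between 4 (2 to 6) and peakless genes 2 (0 to 3). Of 94 genes with at least 7 CpG, 49 were open in all libraries and 4 peakless. Of 40 genes with 0 CpG, 1 was open in all libraries and 30 were peakless, but 24 of the 40 and 19 of the 30 were Cys genes. Without Cys, 1 of 16 genes with 0 CpG was open in all libraries and 11 were peakless, and of 93 genes with at least 7 CpG 49 and 4. The median GC content of the flanks was 46%, 39.5% and 40% in the 3 classes. Within the 11 mixed sets, the median CpG of the copies open in all libraries was higher than that of the peakless copies in 6, equal in 2, both with the peakless copy in the repeat of chromosome 1, and lower in 3. Proximity to other promoters moved with it. A curated start site of another gene lay within 1000 bp of 24 of 80 genes open in all libraries (30%), 12 of 201 in between (5.97%) and 3 of 105 peakless genes (2.86%). Its part in the CpG pattern was not tested.

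**Figure D4:**
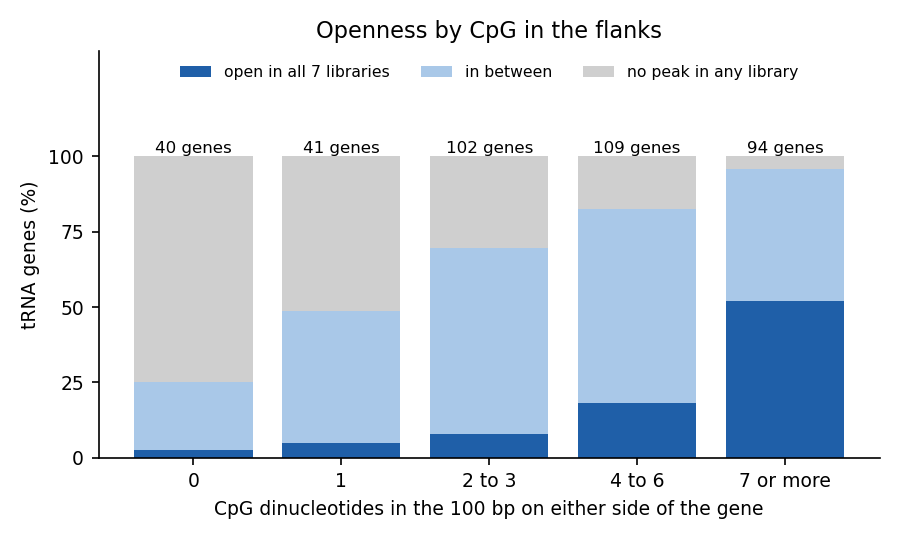
Percent of tRNA genes open in all 7 libraries, in between or peakless, by the number of CpG dinucleotides in the 100 bp on either side. The share open in all libraries is lowest at 0 CpG (1 of 40) and highest at 7 or more (49 of 94). Of the 40 genes at 0 CpG, 24 are Cys genes.

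The internal promoter also differed between the classes. The B box core matched with no mismatch in 67 of 80 genes open in all libraries (83.8%), 129 of 201 in between (64.2%) and 39 of 105 peakless genes (37.1%). Without the Cys genes, of which the most frequent copy has 1 mismatch, the last share was 38 of 65 (58.5%). An exact core on either strand was found in 0.281% of all windows of 72 bp. The A box core TGGCNNAG, allowing 1 mismatch, was found in 67 (83.8%), 164 (81.6%) and 84 (80%) genes of the 3 classes, and in 43.9% of such windows on either strand. Without the Cys genes the A box shares were 83.8%, 80.4% and 70.8% (46 of 65 peakless genes). A run of TTTT within 40 bp after the gene was found in 75 (93.8%), 186 (92.5%) and 79 (75.2%) genes, against 39.6% of windows of 40 bp on either strand, and in 45 of 65 peakless genes (69.2%) without Cys. In the 188 genes with both box cores, the matches overlapped in 0. Of the peakless genes, 54 of 105 lay in introns of other genes, against 10 of 80 genes open in all libraries. Without the Cys genes, 17 of 65 peakless genes lay in introns.

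Summits of the peaks lay beside the genes more often than on them, while the peaks themselves mostly reached the gene. In 921 of 1090 pairs of an open gene and a library (84.5%), a peak past the threshold overlapped the gene itself and not only its flanks. Over 7 libraries, 2558 summits of open peaks lay within 400 bp of a tRNA gene start, each counted once for each gene it lay near. In bins of 50 bp along the direction of transcription, the bin just before the start (-50 to -1) held the most, 450 summits (17.6%), and the first 50 bp of the gene held 83 (3.24%). Further maxima were at -200 to -151 (267 summits) and at 50 to 149 (195 and 203), with 80 summits between -150 and -101. At coding start sites the bin before the start held 12.6% and the next 7.94% of 272134 summits, with no second maximum upstream. In bins of 10 bp the tRNA maximum was at -30 to -21 with 126 summits. The drop at the start was present in each library, with 53 to 82 summits in the bin before it and 9 to 15 in the next. The maximum at -200 to -151 was not, since GFP+ replicate 3 had 30 summits there and 34 in the bin before. The drop at the start was also present without genes within 1000 bp of another start site, at 346 summits before it against 79 after. The processing of at least 1 library shifted each read end by 37 bp before extending it to 73 bp, so summits are not cut sites. The part of this in the spacing was not tested. Of the 386 genes, 227 share their sequence with another member, and reads inside such genes may not be placed with certainty. The part of this in the low count on the gene was not tested. For 106 of the 1090 pairs (9.72%), the strongest peak at the window had its summit more than 400 bp from the gene start.

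**Figure D5:**
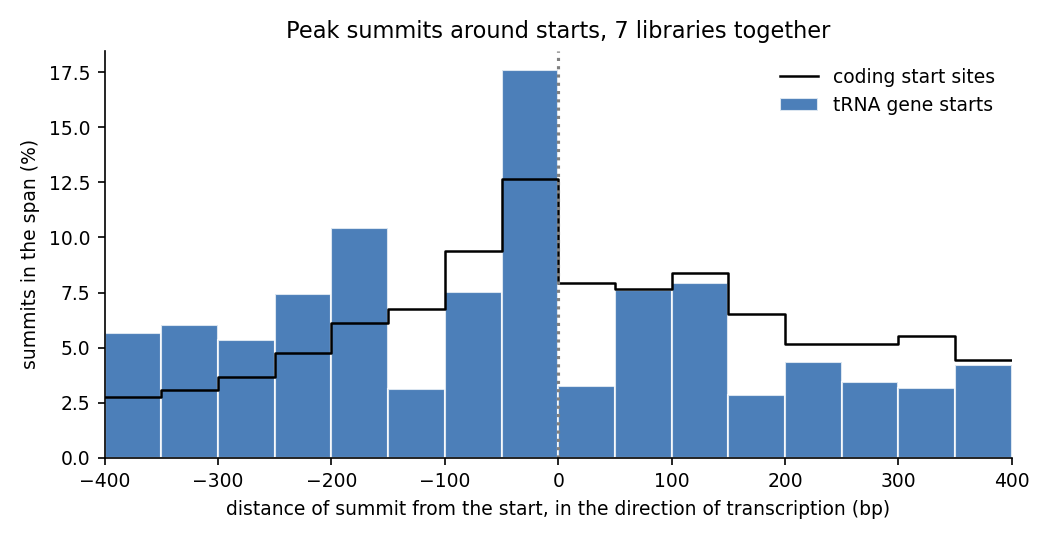
Percent of the peak summits within 400 bp that fall in each 50 bp bin, around the starts of 386 tRNA genes (bars, 2558 summits) and of 24831 coding start sites (line, 272134 summits), 7 libraries together. The tRNA bars rise to 17.6% just before the start and drop to 3.24% just after it, with a second rise at -200 to -151.

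Other genes read by Pol III were looked up in the same way. *Rpph1*, *Rmrp*, *Rn7sk*, *Vaultrc5* and *Bc1*, which code for the RNAs of RNase P and RNase MRP, the 7SK RNA, a vault RNA and a brain cytoplasmic RNA, were open in all 7 libraries. The distance of these genes from other start sites was not looked up. *Rpph1* had fold enrichments of 6.47 to 10.8, and its lowest value was in Tomato+ replicate 6. That library was also lowest for *Vaultrc5* (4.22 against 7.11 or more), *Bc1* (3.02 against 5.31 or more) and *Rn7sk* (5.45 against 6.22 or more), but not for *Rmrp*, which was lowest in GFP- replicate 1 (6.25) and had 7.03 in Tomato+ replicate 6. The Y RNA gene *Rny1* was open in 1 library and *Rny3* in 0. Of 672 annotated U6 and U6atac genes, which use an upstream promoter and have many pseudogenes, 3 were open in all libraries and 625 were peakless.

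Promoters of the genes for the machinery were open in most libraries. Taking 1000 bp before to 100 bp after a start site, 16 of 18 promoters of Pol III subunits, 5 of 6 of TFIIIC, 3 of 4 of TFIIIB, 5 of 5 of SNAPc, the single one of TFIIIA, both of the regulators *Maf1* and *Ssb* and 20 of 20 of cytoplasmic aminoacyl-tRNA synthetases were open in all libraries, against 54.0% of 20021 coding genes. *Polr3a*, *Gtf3c5* and *Brf2* were open in 6 libraries and *Polr2k* in 5, and each of the 4 had a peak of some threshold in 7. As a check of the cells, promoters of the SHF genes *Isl1*, *Mef2c*, *Aldh1a2* and *Fgf10* were open in 7 libraries. That of *Hoxb1* was open in all but Tomato+ replicate 6, the GFP- and Tomato- libraries included, and *Osr1* in both GFP+ libraries, Tomato+ replicate 8 and GFP- replicate 2. *Fgf8* was open in 2 libraries, and *Tbx1* and *Tbx5* in 1 GFP- library each. Of genes of other cells, *Gata1* and *Pecam1* were open in 0, *Hba-a1* and *Sox10* in 1, *Foxd3* in 2, *Sox2* in 6 and *Pax6* and the endothelial gene *Kdr* in 7.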

How the data were processed

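ATAC-seq libraries of 4 sorted populations (2 GFP+, 2 Tomato+, 2 GFP-, 1 Tomato-) were available as lists of peaks, one per library, with replicates not pooled. Reads had been placed on GRCm38 by the authors with the SNAP aligner. Duplicates, pairs that were not proper and blacklisted regions had then been taken out, and MACS2 2.1.1 was used for peaks. The one header kept, that of Tomato+ replicate 6, gives an earlier release, no control and a p limit of 0.01. The deposited pileup is a coverage signal at the summit, unscaled for depth. The deposited -log10 p and -log10 q grow with depth. The deposited fold enrichment is a ratio of the pileup to the modelled local background.

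Summits of one peak were collapsed to that of the smallest p, except in the plot of summits. Tags per library were computed from the smallest background of each list, with an extension of 73 bp and a common genome size. The lists with no header were assumed to share these settings. tRNA genes, start sites and sequences are from RefSeq GRCm38. Genome copies are the median over 49-base words of a window. Initiator Met genes are those that begin with A and hold ATCGA in the T loop. Sequences of 2 of the sets chosen for printing are not reported here. No test was made across genes. The genes named are the 5 with the highest lowest fold enrichment, population-only genes, Met genes, mixed sets from the 3 with most copies and clusters of at least 5 genes. Members and lists were chosen with earlier results of these data known. The alternatives were flanks of 0 and 500 bp, -log10 q of at least 4, peaks of any threshold, the summit inside the window, the 30000 peaks with the smallest p, single-copy windows, genes over 1000 bp from other start sites, links of 5 and 50 kb, other summit and rank choices and leaving out each library. Leaving out Cys genes and Tomato- replicate 7, and leaving out single libraries in the other population counts, was added after seeing the data. Overlap, copy and motif counting were tested on simulated data. The tools were pandas 2.3.3, numpy 2.4.6 and matplotlib 3.10.9 under Python 3.11.15.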

Additional observations from a re-analysis of the deposited data

Results flagged for a closer look

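The share of open tRNA genes moved in opposite directions with the sort in the 2 lines. It was 4.66 percentage points higher in GFP+ than in GFP- libraries (44.0% and 44.0% against 39.9% and 38.9%), and the Tomato+ minus Tomato- difference was -9.07 (35.2% and 35.8% against 44.6%). Without Tomato+ replicate 6 or 8 the latter was -8.81 or -9.33. The difference between the lines was not tested. The share of all windows open was 1.55% and 1.56% in GFP+, 1.42% and 1.53% in GFP-, 1.56% and 1.43% in Tomato+ and 1.73% in Tomato- libraries, and the Tomato- library was the deepest. The part of depth was not tested.

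Of 17 tRNA genes on chromosome X, which are no members, 1 was open in all 7 libraries, the Val gene *n-TVtac3* (chrX:160766110-160766182), and the other 16 were open in 0.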

How the results depend on the processing

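No paired analysis was possible because the number in each title belongs to 1 library only, and the labels do not say which libraries came from the same sort. The percent of tRNA genes open is given in the order GFP+ replicates 3 and 4, Tomato+ replicates 6 and 8, GFP- replicates 1 and 2 and Tomato- replicate 7. With no flank it was 38.08, 37.82, 29.53, 29.79, 33.16, 32.9 and 37.31. With 500 bp on either side it was 55.7, 55.96, 46.89, 46.89, 51.81, 49.22 and 55.44. At a -log10 q of at least 4 it was 31.09, 34.2, 24.61, 26.17, 27.46, 28.5 and 32.9. With peaks of any threshold it was 57.77, 53.63, 49.74, 47.41, 47.67, 51.04 and 56.22. With the summit required inside the window it was 26.17, 25.91, 19.95, 20.21, 22.54, 21.76 and 26.17. In the 30000 peaks with the smallest p it was 30.83, 31.09, 21.5, 25.39, 26.42, 27.72 and 28.76. Without the Cys genes it was 49.85, 50.15, 40.73, 41.03, 45.9, 44.07 and 50.76. It moved by less than its interval in single-copy windows and without genes within 1000 bp of another start site. Both Tomato+ libraries stayed below both GFP+ libraries under each of these settings.

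Genes open in all libraries numbered 122 with 500 bp on either side, 18 with the summit required inside the window and 52 in the 30000 peaks with the smallest p. Peakless genes numbered 59 with 500 bp on either side, 220 in the 30000 peaks and 65 without the Cys genes. In the setting of 30000 peaks, here and below, peakless means touched by none of those peaks. Mixed sets of identical genes numbered 5 with 500 bp on either side, 7 at a -log10 q of at least 4 and 4 by the summit.

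Genes open in GFP+ and peakless in Tomato+ libraries numbered 10 with no flank and 2 both with 500 bp on either side and at a -log10 q of at least 4. Without 1 library they numbered 14 to 19. The reverse count was 1 by the summit and in the 30000 peaks, and 2 to 4 without 1 library. Genes open in GFP+ and peakless in GFP- libraries numbered 1 with no flank or with 500 bp, 2 by the summit, 5 in the 30000 peaks, and 6 to 12 without 1 library. A single library in place of 2 is the weaker demand by construction.

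The sort-positive minus sort-negative difference became 0.173 without Tomato+ replicate 6 and 0.389 without Tomato- replicate 7, ranging from -2.76 to 0.389 when 1 library was left out. With links of 50 kb there were 31 clusters, 0 of them with every gene peakless. Ranked by p, the median tRNA peak was in the highest 9.64% of a list, against 12.3% by fold enrichment. The cause of these changes was not tested. Windows, depth and the lack of a read count over a shared set of regions limit what absence of a peak means, since a site whose p is just above the limit of 0.01, stated for 1 list, is not listed.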
